A study of Mus musculus with 19 samples.

Results

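The 10 genes followed here are markers of tubule injury and repair, read in mice lacking macroH2A1.1: Havcr1, Lcn2, Krt8, Krt18, Krt20, Sox9, Vcam1, Spp1, Clu and Il34. They were chosen by name, and all 10 are among the 26506 genes of the count table. Kidneys and livers came from male mice, named here by the numbers in the labels. The homozygous macroH2A1.1 knockouts were 5 numbers with both tissues (13, 14, 15, 16 and 18). The wild types were 5 numbers with a kidney (19, 20, 22, 23 and 24) and 4 with a liver (19, 20, 22 and 24). The labels do not say in words that the kidney and liver of a number came from the same animal. The knockout removes the alternative exon of H2afy that encodes the macroH2A1.1 isoform in the germ line, through Cre protein given to zygotes, and knockouts and wild types both came from crosses of heterozygotes backcrossed to C57BL/6J. All groups were whole homogenised tissue measured by RNA sequencing of poly(A) RNA. Ages, and which mice were fed standard or ketogenic chow, were not given in the sources used here. No group received a kidney-injuring agent according to the labels. MacroH2A1.1 is a histone variant isoform whose macrodomain binds ADP-ribose, and the series addresses kidney abnormalities and nutrient use after its loss.

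When a kidney tubule is damaged, surviving epithelial cells leave their mature transporting state, take on a flattened, motile form and divide to close the gap. While they change they switch on surface receptors, secreted proteins, cytoskeletal keratins and the transcription factor Sox9 that are otherwise low in proximal tubule, and cells that fail to mature again keep expressing Vcam1. Several of the same genes have other homes in healthy tissue: Spp1 in the thick ascending limb and collecting duct, Clu and the Krt8 and Krt18 pair in liver cells, and Sox9 in bile duct cells. In bulk tissue, fewer cells of a type and less RNA per cell cannot be told apart.

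Sequence before the start of transcription is shown for the 4 members whose RefSeq window reached outside the GENCODE gene, Spp1 and Krt20, which were higher in wild-type kidney than in wild-type liver, and Krt8 and Krt18, which were lower. The sequences are RefSeq promoter windows on GRCm38.p6, reading 5′ to 3′ on the gene's own strand and limited to bases before both the RefSeq start and the GENCODE gene. Spp1 is at chr5:104434861-104435110 on the plus strand, Krt20 at chr11:99438154-99438403 on the minus strand, Krt8 at chr15:102004483-102004592 on the minus strand and Krt18 at chr15:102027966-102028179 on the plus strand. Capitals mark matches to TATAAA and CCAAT on either strand, and the windows hold no capitals elsewhere.
Spp1: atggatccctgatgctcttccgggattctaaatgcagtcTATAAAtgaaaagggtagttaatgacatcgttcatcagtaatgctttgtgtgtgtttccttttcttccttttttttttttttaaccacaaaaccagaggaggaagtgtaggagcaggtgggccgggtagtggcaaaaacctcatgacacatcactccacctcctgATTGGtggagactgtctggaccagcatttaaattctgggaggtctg
Krt20: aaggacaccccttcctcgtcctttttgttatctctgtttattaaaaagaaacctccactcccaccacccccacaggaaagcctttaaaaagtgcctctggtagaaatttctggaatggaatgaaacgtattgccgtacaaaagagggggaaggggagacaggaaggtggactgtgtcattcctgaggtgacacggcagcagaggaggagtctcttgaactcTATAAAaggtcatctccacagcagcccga
Krt8: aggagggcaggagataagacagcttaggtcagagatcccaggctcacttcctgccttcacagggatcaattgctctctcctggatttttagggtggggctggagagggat
Krt18: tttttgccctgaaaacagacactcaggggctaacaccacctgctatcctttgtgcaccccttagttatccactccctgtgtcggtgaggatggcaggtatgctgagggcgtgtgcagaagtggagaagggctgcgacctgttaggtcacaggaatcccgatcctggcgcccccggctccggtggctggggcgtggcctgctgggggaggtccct
The TATAAA of Krt20 lies 29 to 24 bases before its start, and TATAAA occurs in 12.4% of the 32851 RefSeq mouse windows of 250 bases. Spp1 holds TATAAA 211 to 206 bases before its start and the reverse of CCAAT 46 to 42 bases before it, and CCAAT occurs in 33.8% of windows. The full windows of Krt8 and Krt18 held neither of these, nor GGGCGG (32.7% of windows), TGANTCA (6.75%), TTCNNNGAA (7.02%) or the NF-kB motif (4.11%). All were searched on both strands, the matches shown do not overlap each other, and they are letter matches only. Of the 10 members, 6 had a window in the RefSeq table.

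Depth ran from 25919138 to 35131720 counts per library in kidney and from 26084473 to 34806035 in liver. Albumin (Alb) was at 4.96 to 40.9 CPM (counts scaled to library totals) in kidney and 56646 to 68908 CPM in liver, while uromodulin (Umod), a thick limb protein, ran from 1972 to 3242 CPM in kidney and never exceeded 0.0303 CPM in liver. The targeted gene H2afy averaged 55.9 ± 4.5 CPM in knockout kidneys and 83.4 ± 10.5 CPM in wild-type kidneys (SD, n = 5 each), and 47.9 ± 4.45 CPM in knockout livers (SD, n = 5) and 73.1 ± 14 CPM in wild-type livers (SD, n = 4). The groups did not overlap, with log2 changes of -0.58 in kidney (SE 0.10, edgeR adjusted p = 0.135) and -0.61 in liver (SE 0.13, edgeR adjusted p = 0.384). The targeted gene itself therefore did not pass the edgeR test used below for the members. It passed at 0.05 in both tissues with DESeq2 (DESeq2 adjusted p = 9.14e-05 in kidney and 0.0212 in liver). In edgeR it passed in both without mouse 24 (edgeR adjusted p = 0.00679 and 0.0469) and without mice 16 and 24 together (0.0174 and 0.0363). Under the other alternatives listed further below it did not pass in both tissues. The H2afy count covers the whole gene, so it does not test the deleted exon. The library labelled wild-type 24 held the lowest H2afy of the wild types, 65.6 CPM in kidney and 53.5 CPM in liver. The highest knockouts were close to it, at 61.1 CPM in kidney and 52.9 CPM in liver. The other wild types lay at 82.4 to 90.8 CPM in kidney and 74.6 to 86.4 CPM in liver. The kidney of knockout 16 held 3 adrenal cortex genes at a summed 146 CPM, against at most 6.65 CPM in wild-type kidneys, with Cyp11a1 at 32.4 CPM, and the kidney of knockout 13 held the highest Alb. Without mice 16 and 24 together, 0 members passed the test below in either tissue, as with all libraries.

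Loss of macroH2A1.1 was not accompanied by a change in any of the markers that passed the test, in kidney or in liver. With the quasi-likelihood test of edgeR and Benjamini-Hochberg adjustment over all genes, 0 of the 10 members differed in kidney at an adjusted p under 0.05, where 0.00579% of the 17269 genes tested did. In liver 0 of the 8 members that passed the filter on low counts differed, where 0% of 14591 genes did. DESeq2 and limma voom also called 0 members in each tissue. In edgeR with all libraries, 0 members had an unadjusted p under 0.05 in either tissue, a level reached by 2.95% of all genes in kidney and 4.17% in liver. For every member the ranges of knockout and wild-type libraries overlapped, and the groups did not overlap for 0.562% of genes in kidney and 1.56% in liver. All levels of single libraries below are CPM after scaling within the tissue (TMM), in the order of mouse numbers given above.

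**Figure D1:**
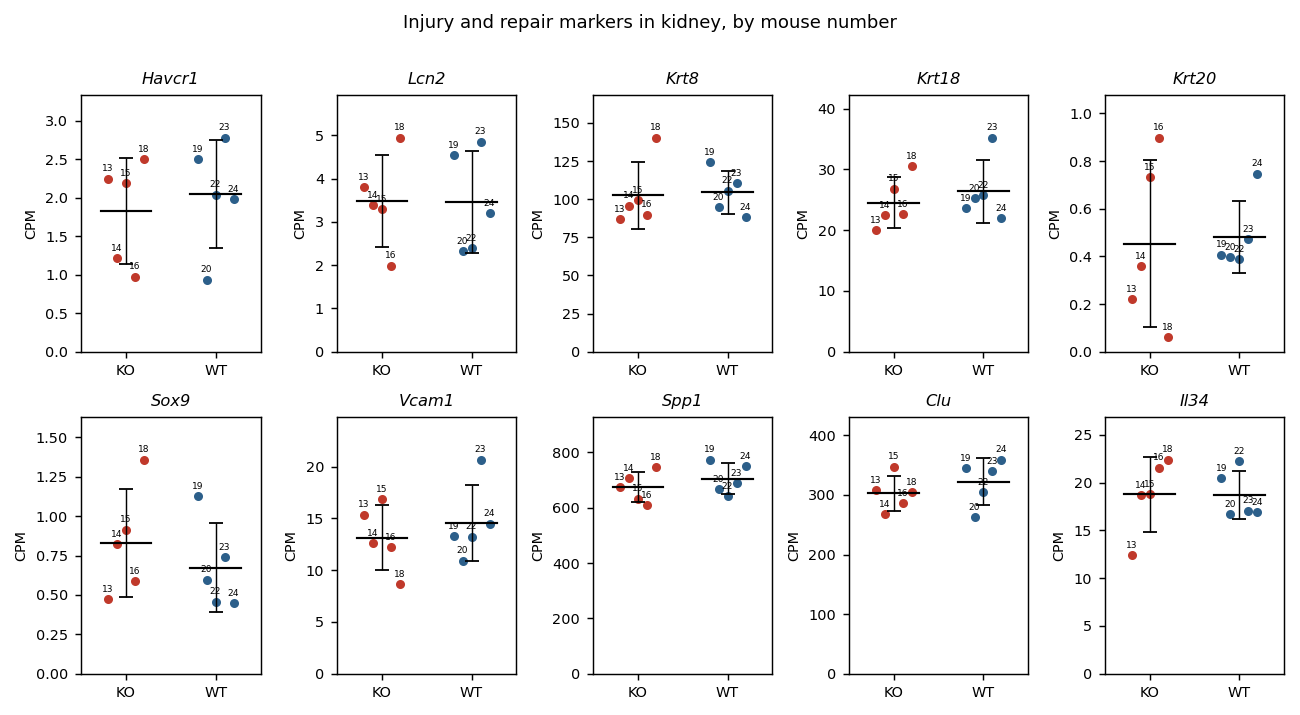
Levels of the 10 members in each kidney library in CPM, knockouts on the left and wild types on the right of each panel, with mouse numbers beside the points, the group mean as a wide bar and the SD as a whisker (n = 5 each). In every panel the points of the groups share most of their range, and knockout 18 stands above the other knockouts for Krt8 at 140 CPM.

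Havcr1 encodes KIM-1, a surface receptor that lets injured proximal tubule cells take up dying neighbours. Its level was 2.25, 1.22, 2.19, 0.977 and 2.51 CPM in knockout kidneys and 2.5, 0.938, 2.04, 2.78 and 1.98 CPM in wild-type kidneys, from 25 to 94 counts per library. Each group held libraries near 1 CPM and libraries above 2 CPM. The log2 change of knockout over wild type was -0.15 (SE 0.30, edgeR adjusted p = 0.999). In liver Havcr1 had 2, 0, 0, 0 and 1 counts in knockouts and 0, 1, 0 and 0 counts in wild types, all at or below the 3 counts taken as the limit of detection, which corresponds to 0.0860 to 0.116 CPM depending on the library. It was therefore not tested there.

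Lcn2 encodes NGAL, an iron-siderophore binding lipocalin secreted by stressed distal tubules and also stored in neutrophil granules. Its kidney level was 3.8, 3.4, 3.29, 1.99 and 4.95 CPM in knockouts and 4.54, 2.33, 2.39, 4.86 and 3.21 CPM in wild types. The highest library of each group lay just below 5 CPM. The log2 fold change was 0.01 (SE 0.25, edgeR adjusted p = 0.999). In liver Lcn2 was at 6.22, 2.07, 4.5, 2.41 and 7.52 CPM in knockouts and 2.36, 4.01, 7.23 and 5.38 CPM in wild types, with a log2 change of -0.06 (SE 0.42, edgeR adjusted p = 1.0). Both groups of livers spread over about the same range. The 4 neutrophil markers summed to 1.21 to 2.79 CPM in knockout kidneys and 1.57 to 16.9 CPM in wild-type kidneys. Among them S100a8 had a log2 change of -2.07 (SE 0.58, edgeR adjusted p = 0.999) and was highest in the kidneys of wild types 23 and 22, at 6.19 and 3.48 CPM. S100a9 had one of -1.79 (SE 0.63, edgeR adjusted p = 0.999). Mpo and Ly6g, the rest of that list, had 0 counts in all 5 knockout kidneys and at most 2 counts in any wild-type kidney. The part of neutrophil RNA in the Lcn2 values was not tested.

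Krt8 and Krt18 are the type II and type I keratins that pair into the filaments of simple epithelia. Krt8 was at 87.0, 95.8, 99.4, 89.9 and 140 CPM in knockout kidneys and 124, 94.6, 106, 110 and 88.2 CPM in wild-type kidneys. Knockout 18 was the highest of the 10 kidneys and knockout 13 the lowest, and the wild types lay between them. The log2 fold change was -0.03 (SE 0.13, edgeR adjusted p = 0.999), and its 95% confidence interval runs from 0.810-fold to 1.18-fold. Krt18 was at 20.0, 22.5, 26.8, 22.7 and 30.6 CPM in knockout kidneys and 23.6, 25.3, 25.7, 35.2 and 21.9 CPM in wild-type kidneys, a log2 change of -0.11 (SE 0.14, edgeR adjusted p = 0.999). Wild-type 23 was highest and knockout 13 again lowest. Leaving out wild-type 23 turned the Krt18 value to 0.02.

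In liver Krt8 was at 267, 284, 331, 270 and 341 CPM in knockouts and 345, 290, 299 and 247 CPM in wild types, a log2 change of 0.01 (SE 0.12, edgeR adjusted p = 1.0). Krt18 reached 203, 252, 263, 240 and 246 CPM in livers of knockouts and 279, 258, 270 and 232 CPM in wild-type livers, a log2 change of -0.11 (SE 0.10, edgeR adjusted p = 1.0). Wild-type 19 was the highest liver for both keratins. Krt20, a keratin of intestinal and urothelial lining that appears in damaged proximal tubule, was at 0.222, 0.358, 0.731, 0.899 and 0.0604 CPM in knockout kidneys and 0.407, 0.398, 0.387, 0.474 and 0.747 CPM in wild-type kidneys. Those values rest on 2 to 23 counts per library, the knockouts spread more widely than the wild types, and the log2 fold change was -0.11 (SE 0.50, edgeR adjusted p = 0.999). All 9 livers had 0 counts of Krt20. The 6 urothelial markers summed to 19.1 to 32.0 CPM in knockout kidneys and 20.2 to 25.3 CPM in wild-type kidneys, and their part in Krt20 was not tested.

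Sox9 is the transcription factor that marks tubule cells re-entering a progenitor-like state after injury, and in liver it marks bile duct cells. Its kidney level was low, at 0.475, 0.823, 0.914, 0.586 and 1.36 CPM in knockouts and 1.13, 0.597, 0.457, 0.740 and 0.448 CPM in wild types, from 12 to 45 counts. Knockout 18 was again the highest library, followed by wild-type 19. The log2 fold change was 0.30 (SE 0.34, edgeR adjusted p = 0.999). In liver Sox9 was at 7.33, 12.0, 7.48, 7.32 and 2.60 CPM in knockouts and 6.49, 7.82, 14.1 and 13.6 CPM in wild types, a log2 change of -0.51 (SE 0.38, edgeR adjusted p = 1.0). Knockout 18, highest for Sox9 in kidney, was lowest in liver. The 5 bile duct markers summed to 46.7 to 71.6 CPM in knockout livers and 51.1 to 66.8 CPM in wild-type livers, but the list holds Sox9 itself and Spp1, which makes up most of the sum.

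Vcam1 encodes an adhesion molecule for leukocytes, made by activated endothelium and by tubule cells that fail to complete repair. It was at 15.4, 12.6, 16.8, 12.2 and 8.64 CPM in knockout kidneys and 13.3, 10.9, 13.2, 20.7 and 14.5 CPM in wild-type kidneys. The lowest library was knockout 18 and the highest wild-type 23, with the other 8 between them. The log2 fold change was -0.15 (SE 0.18, edgeR adjusted p = 0.999), and 0.02 without wild-type 23. In liver it was at 11.4, 5.94, 12.6, 8.21 and 10.1 CPM in knockouts and 5.67, 5.21, 9.83 and 10.8 CPM in wild types, a log2 change of 0.30 (SE 0.26, edgeR adjusted p = 1.0). The 2 lowest livers were wild types, yet knockout 14 lay close to them.

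Spp1 encodes osteopontin, a secreted phosphoprotein that binds integrins and Cd44. It was the most precisely measured member in kidney, at 673, 707, 633, 609 and 746 CPM in knockouts and 774, 668, 642, 688 and 750 CPM in wild types. The log2 fold change was -0.06 (SE 0.09, edgeR adjusted p = 0.999), and its 95% confidence interval runs from 0.843-fold to 1.09-fold. In liver Spp1 was at 35.7, 40.3, 55.8, 39.3 and 45.3 CPM in knockouts and 42.3, 48.3, 32.6 and 48.3 CPM in wild types, a log2 change of 0.01 (SE 0.15, edgeR adjusted p = 1.0). Knockout 15 was the highest liver and wild-type 22 the lowest.

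Clu encodes clusterin, a secreted chaperone of damaged proteins that is also abundant in plasma. Kidneys held 308, 268, 348, 286 and 304 CPM in knockouts and 345, 263, 304, 341 and 359 CPM in wild types, a log2 change of -0.09 (SE 0.10, edgeR adjusted p = 0.999) with an interval from 0.812-fold to 1.09-fold. Livers held 1845, 1439, 1734, 1908 and 1959 CPM in knockouts and 2054, 1785, 2004 and 2047 CPM in wild types, a log2 change of -0.15 (SE 0.11, edgeR adjusted p = 1.0). Of the livers, 3 wild types lay above every knockout, and the fourth, number 20, lay below 3 of the knockouts.

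Il34 encodes a ligand of the macrophage receptor Csf1r that injured tubules secrete. It was at 12.4, 18.7, 18.8, 21.6 and 22.4 CPM in knockout kidneys and 20.5, 16.7, 22.3, 17.1 and 16.9 CPM in wild-type kidneys, a log2 change of 0.01 (SE 0.14, edgeR adjusted p = 0.999). Knockouts 18 and 13 held the highest and the lowest value. Livers held 2.39, 1.10, 2.49, 2.11 and 2.46 CPM in knockouts and 1.98, 2.34, 3.48 and 2.01 CPM in wild types, a log2 change of -0.22 (SE 0.27, edgeR adjusted p = 1.0). Gm15895 overlaps Il34 in the annotation and had 0 to 114 counts, in all 14.4% of the Il34 counts, and without a known strand setting its reads cannot be told apart from those of Il34. The other annotated overlaps with a count, of Spp1, Krt8 and Il34, came to less than 1% of the member's counts.

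**Figure D2:**
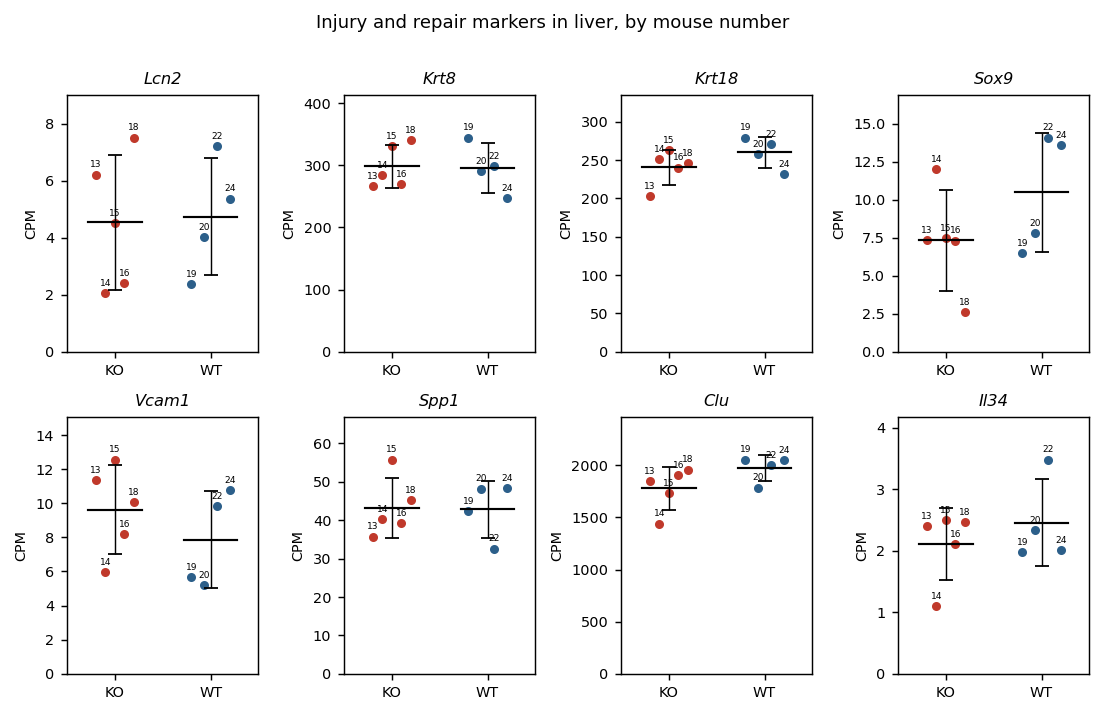
Levels of the 8 members tested in liver, in each library in CPM, knockouts on the left (n = 5) and wild types on the right (n = 4), with mouse numbers, group means and SD. The groups overlap in every panel; Krt20 (0 CPM in all livers) and Havcr1 (at most 0.0598 CPM) are not drawn.

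Across the members, the median KO effect lay close to 0 in each tissue. In kidney 3 of 10 log2 fold changes were above 0 and 7 below, with a median of -0.08, where the median of all genes was 0.01 and 52.2% were above 0. In liver 3 of 8 were above 0 and 5 below, with a median of -0.09, where the median of all genes was 0.00 and 51.3% were above 0. The standard errors in kidney ran from 0.09 for Spp1 to 0.50 for Krt20, so the precision differs widely among the members. Havcr1, Sox9 and Krt20 were measured on few counts in kidney. Their 95% intervals there ran from 0.574-fold to 1.41-fold, from 0.740-fold to 2.04-fold and from 0.444-fold to 1.92-fold. In liver the standard errors ran from 0.10 for Krt18 to 0.42 for Lcn2, whose interval was 0.506-fold to 1.81-fold. The liver value furthest from 0 was that of Sox9, at -0.51, with an interval from 0.392-fold to 1.25-fold.

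**Figure D3:**
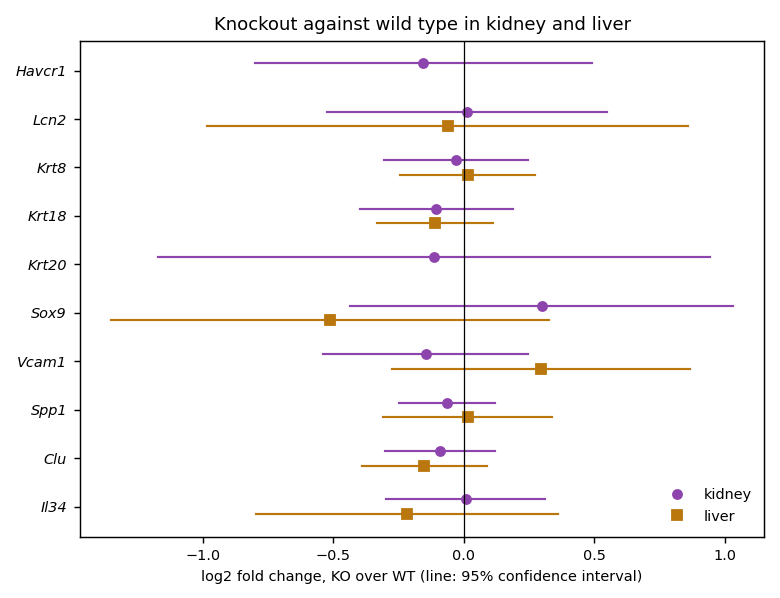
Log2 fold change of knockout over wild type for each member, with its 95% confidence interval, in kidney (circles, n = 5 and 5) and liver (squares, n = 5 and 4); Havcr1 and Krt20 have no liver value. Every interval crosses 0, and the widest kidney interval is that of Krt20, from -1.17 to 0.94.

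For no member did the difference of the KO effect between kidney and liver pass the test in a fit of all 19 libraries. Of 18549 genes, 0% passed (edgeR, adjusted p under 0.05) and 4.12% had an unadjusted p under 0.05. DESeq2 and limma voom called 0 members, and in edgeR with all libraries 0 members had an unadjusted p under 0.05. The effects of Sox9 were furthest apart, with a kidney value above 0 and a liver value below it, a difference of 0.80 on the log2 scale (SE 0.53, edgeR adjusted p = 1.0). For Vcam1 the difference was -0.45 (SE 0.34, edgeR adjusted p = 1.0), with the signs the other way round. Il34 differed by 0.22 (SE 0.29) and the other 5 members measured in both tissues by less than 0.10. Havcr1 and Krt20 give no usable difference, since both were at or under the limit of detection in liver.

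Where the markers did differ was between the organs. In wild types, 9 of the 10 members differed between kidney and liver, 4 higher in kidney and 5 lower, where 71.9% of all genes differed, 40.2% higher in kidney and 31.7% lower (edgeR, 18549 genes). The groups did not overlap for 8 members, all but Lcn2 and Vcam1, where this held for 64.6% of all genes. Levels in this comparison come from the fit of all libraries and are therefore scaled differently from those above. Spp1 averaged 524 ± 38.9 CPM in wild-type kidneys (SD, n = 5) and 59.7 ± 10.4 CPM in wild-type livers (SD, n = 4), a log2 change of 3.13 (SE 0.14, edgeR adjusted p = 2.48e-15). Il34 averaged 13.9 ± 1.9 CPM in kidneys and 3.41 ± 0.964 CPM in livers, a log2 change of 2.02 (SE 0.22, edgeR adjusted p = 2.09e-08). Havcr1 had 318 counts over the 5 wild-type kidneys and 1 count over the 4 livers, a ratio of 134 per unit of library with a 95% counting interval of 23.8 to 5294. Krt20 had 74 counts in the wild-type kidneys and 0 in the livers, which makes it at least 10.4-fold higher in kidney when the livers are set at 3 counts over the group.

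Lower in wild-type kidney than in wild-type liver were Krt8, Krt18, Sox9, Clu and Lcn2. Sox9 averaged 0.501 ± 0.206 CPM in kidneys and 14.6 ± 5.31 CPM in livers, a log2 change of -4.84 (SE 0.39, edgeR adjusted p = 3.55e-10). Krt18 averaged 19.6 ± 3.94 CPM in kidneys and 362 ± 30.5 CPM in livers, a log2 change of -4.20 (SE 0.14), while Krt8, at 77.9 ± 10.3 and 412 ± 58.3 CPM in kidneys and livers, had one of -2.40 (SE 0.14). Clu averaged 240 ± 28.8 CPM in kidneys and 2746 ± 166 CPM in livers, a log2 change of -3.52 (SE 0.12). Lcn2 was at 2.58 ± 0.878 CPM in kidneys and 6.59 ± 2.83 CPM in livers, with overlapping groups and a log2 change of -1.35 (SE 0.36, edgeR adjusted p = 0.00245). Vcam1 stood at 10.8 ± 2.77 CPM in kidneys and 10.9 ± 3.84 CPM in livers, a log2 change of -0.01 (SE 0.25, edgeR adjusted p = 0.966). The scaling matters here: with library totals in place of TMM the median of all genes moved to 1.05 from 0.17, the share of called genes that were higher in kidney moved to 84.5% from 55.9%, the Lcn2 call was lost (-0.47, edgeR adjusted p = 0.225) and Vcam1 became higher in kidney (0.87, edgeR adjusted p = 0.00259).

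Divided by exon length, so that genes can be set against each other, the members kept a clear order at the upper end. In kidney, over all 10 libraries, Spp1 led at 418 ± 33.1 CPM per kb, followed by Clu at 90.9 ± 9.99, Krt8 at 52.9 ± 8.85, Krt18 at 17.7 ± 3.17 and Il34 at 9.56 ± 1.59 CPM per kb (SD, n = 10), none of which overlapped its neighbours. Vcam1, Lcn2, Havcr1, Krt20 and Sox9 came next, from 1.56 ± 0.373 for Vcam1 to 0.182 ± 0.0742 CPM per kb for Sox9, each overlapping the next in the order. In liver, over 9 libraries, Clu led at 542 ± 56.7 CPM per kb, Krt18 at 173 ± 15.9 and Krt8 at 152 ± 17.8 overlapped, and Spp1 followed at 26.2 ± 4.33 CPM per kb (SD, n = 9). Sox9, Lcn2, Il34 and Vcam1 overlapped each other between 2.12 ± 0.907 and 0.997 ± 0.305 CPM per kb. The spread between kidneys also differed among members, with a coefficient of variation of 7.91% for Spp1, 11% for Clu, 34.3% for Havcr1, 40.8% for Sox9 and 54.5% for Krt20, the last 3 being the members with the fewest counts.

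**Figure D4:**
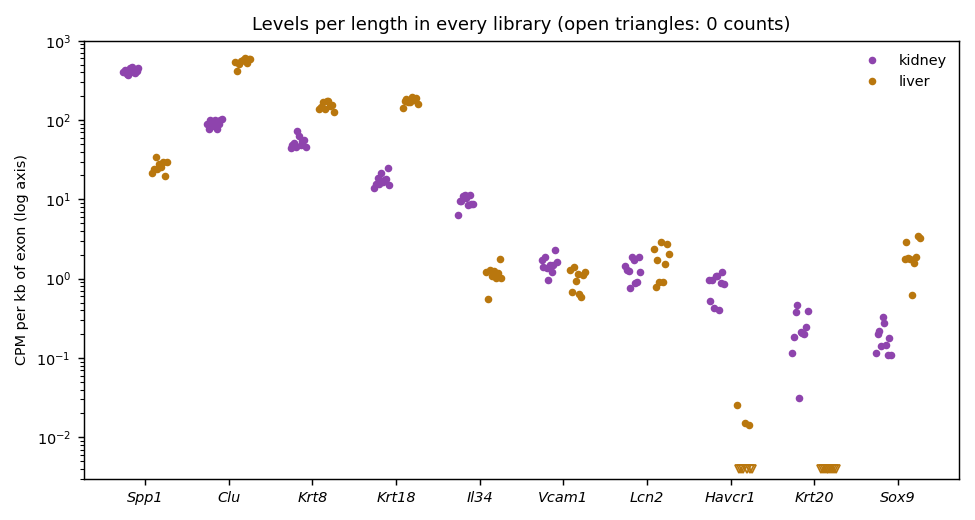
CPM per kb of exon on a log axis for each member in every kidney library (n = 10) and every liver library (n = 9), with 0 counts drawn as open triangles at the foot of the axis. Spp1 leads in kidney and Clu in liver, and Krt20 and most Havcr1 livers sit on the floor.

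Per exon length, the keratin partners changed places between the organs. The ratio of Krt8 to Krt18 counts per exon length was 3.19, 3.13, 2.72, 2.91 and 3.37 in knockout kidneys and 3.88, 2.74, 3.01, 2.30 and 2.95 in wild-type kidneys, so Krt8 exceeded Krt18 in all 10. It was 0.967, 0.828, 0.921, 0.825 and 1.02 in livers of knockouts and 0.905, 0.827, 0.812 and 0.782 in wild-type livers, so Krt18 exceeded Krt8 in 8 of 9. Wild-type kidneys and livers averaged 2.98 ± 0.575 and 0.831 ± 0.0528 (SD, n = 5 and 4), a log2 difference of 1.82 (exact two-sided permutation p = 0.0159, 0.0476 adjusted over 3 comparisons). That p is the smallest possible for 5 against 4 libraries taken as unpaired. All 4 wild-type livers share a mouse number with a wild-type kidney, and the test did not use this pairing. The ratio differed between knockout and wild type by 0.06 on the log2 scale in kidney (exact permutation p = 0.683) and by 0.13 in liver (exact permutation p = 0.111), where 5 against 4 cannot go below 0.0159. Being taken within a library, the ratio does not depend on library scaling. It rests on the annotated exon lengths of 1958 bases for Krt8 and 1437 bases for Krt18. Before division by length, Krt8 was above Krt18 in every liver and every kidney, so the order in liver depends on those lengths.

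**Figure D5:**
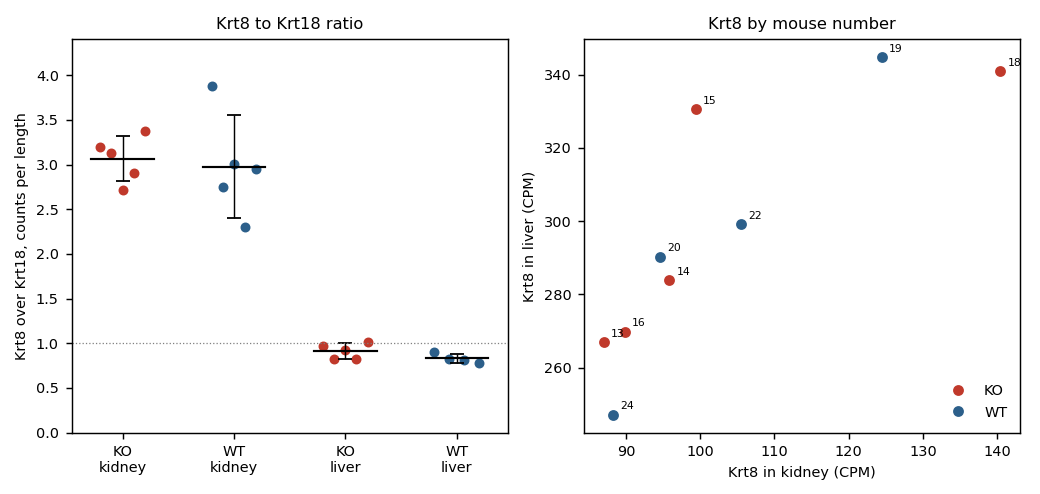
Left, the ratio of Krt8 to Krt18 counts per exon length in knockout and wild-type kidneys (n = 5 each) and knockout and wild-type livers (n = 5 and 4), with mean and SD and a dotted line at 1. Right, Krt8 in CPM in the kidney (x axis) and the liver (y axis) carrying the same mouse number (9 numbers), where the points run from lower left to upper right.

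Krt8 also varied together in the kidney and liver libraries that carry one number. Over the 9 numbers with both tissues, log2 CPM of Krt8 in kidney and in liver correlated with a Pearson r of 0.86 and a Spearman rho of 0.93 (exact permutation p = 0.00106 and 0.00075; 0.00847 and 0.006 adjusted over the 8 members tested). The 4 numbers with the highest Krt8 in kidney, 18, 19, 22 and 15, were also the 4 highest in liver. Without the 2 mice farthest from the kidney median r was 0.79, centred on each genotype it was 0.86, and with library totals as the scaling it was 0.75. Across all 13847 genes measured in both tissues the median r was 0.25, and 1.3% of genes had an r at least as high as that of Krt8. Sox9 had an r of -0.73 (exact permutation p = 0.0207, 0.0827 adjusted), which came to -0.32 without the 2 farthest mice, and the other 6 members lay between 0.12 and 0.56. The labels do not say in words that a number marks one animal, and this relation was singled out after its values were seen.

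Within the kidney, correlation between markers from library to library did not pass the test for any pair. Of the 45 pairs over the 10 kidneys, 5 had an unadjusted permutation p under 0.05 and 0 passed after adjustment. Havcr1 and Lcn2 gave r = 0.79 and rho = 0.89 (permutation p = 0.00870 and 0.00122; adjusted 0.130 and 0.0549), and r was 0.52 without the 2 libraries farthest from the median. Krt8 and Sox9 gave r = 0.81 and rho = 0.73 (permutation p = 0.00437 and 0.0200; adjusted 0.130 and 0.300), and r was 0.40 without the 2 farthest. Centred on each genotype this pair alone passed for Pearson's r (0.87, permutation p adjusted 0.0459), not for rho (adjusted 0.0985). Krt8 and Krt18 gave r = 0.64 and rho = 0.79 (permutation p = 0.0488 and 0.00926, adjusted 0.344 and 0.208), with r at 0.89 without the 2 farthest. Havcr1 and Clu gave r = 0.78 and rho = 0.55 (permutation p = 0.00834 and 0.104, adjusted 0.130 and 0.469), with r at 0.65 without the 2 farthest. Lcn2 and Spp1 gave r = 0.70 and rho = 0.64 (permutation p = 0.0253 and 0.0547, adjusted 0.285 and 0.373), with r at 0.49 without the 2 farthest. Knockout 18 was the highest kidney for 4 members, Lcn2, Krt8, Sox9 and Il34, and wild-type 23 for 3, Havcr1, Krt18 and Vcam1, so the highest libraries fell in both genotypes.

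The genes most like a member over the 10 kidneys, among 14547 genes of at least 1 CPM, are given as a description. For Vcam1 they were Cd86, Ifi211 and Nfib (r = 0.91, 0.90 and 0.90), for Lcn2 Cdca7, Selplg and Sema6b (0.93, 0.93 and 0.90), and for Havcr1 Cnksr3 and Slc5a10 (0.85 and 0.84). Krt18 was closest to Ecm1 (0.94) and Krt8 to Tmem203 (0.96). For Spp1 the closest was Pi4k2a (0.95), and with so many genes over 10 libraries values of this size are common to all members.

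Genes of related pathways gave no call either. Of 160 other listed genes tested in kidney and 136 in liver, 0 passed at an adjusted p under 0.05 in edgeR. Of all genes, 52.2% had a log2 fold change above 0 in kidney and 51.3% in liver. An unadjusted p under 0.05 was reached by 2.95% of all genes in kidney and 4.17% in liver. Among 36 further genes of injured and incompletely repaired tubules, 10 had a log2 fold change above 0 and 26 below in kidney (median -0.12), and 5 had an unadjusted p under 0.05. The 2 with the smallest p were Timp1, an inhibitor of matrix proteases, at 0.545 ± 0.226 CPM in knockout and 1.28 ± 0.619 CPM in wild-type kidneys (log2 fold change -1.24, SE 0.39, edgeR adjusted p = 0.999), and the chemokine Ccl2, at 0.775 ± 0.508 and 1.91 ± 1.0 CPM in knockouts and wild types (-1.30, SE 0.50, edgeR adjusted p = 0.999; SD, n = 5 each). In liver 9 of 35 were above 0 and 26 below (median -0.17), 3 with an unadjusted p under 0.05. These were led by Dcdc2a (0.61, SE 0.19, edgeR adjusted p = 0.934) and Ccn2, a matricellular growth factor (1.21, SE 0.38, edgeR adjusted p = 0.961), both with values above 0. In both tissues this list held a larger share below 0, and under that unadjusted p, than all genes did. Whether the list as a whole departs from all genes was not tested.

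Binding partners and receptors of the members were spread evenly, 9 above 0 and 8 below of 17 in kidney and 6 and 9 of 15 in liver. Csf1r, the receptor of Il34, averaged 67.3 CPM in knockout and 68.1 CPM in wild-type kidneys (log2 fold change -0.02, SE 0.08), and Cd44, a receptor of osteopontin, 3.71 and 3.65 CPM in knockouts and wild types (0.02, SE 0.20). Itgb7, an integrin chain that pairs with the Vcam1 receptor Itga4, had log2 fold changes of 0.39 in kidney (SE 0.17, edgeR adjusted p = 0.999) and 0.45 in liver (SE 0.17, edgeR adjusted p = 1.0). Vldlr, a lipoprotein receptor that binds clusterin, was at 1.32 to 4.29 CPM in knockout livers and 0.542 to 1.07 CPM in wild-type livers, without overlap, and had a log2 change of 1.68 (SE 0.40, edgeR adjusted p = 0.536). Csf1r and Cd44 were named for their role and not for their p.

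Early response transcription factors, which open the tubule's injury response, had 1 of 9 values above 0 in kidney, with a median log2 change of -0.58, and 0 with an unadjusted p under 0.05. Egr1 reached 8.58 to 28.3 CPM in knockout kidneys and 11.1 to 178 CPM in wild-type kidneys (log2 fold change -1.74, SE 0.93, edgeR adjusted p = 0.999). Genes of NF-kB, the pathway that drives Vcam1 in activated cells, had 2 of 11 values above 0 in each tissue, with medians of -0.05 in kidney and -0.22 in liver, and Il1b was at 0.996 to 2.54 CPM in knockout and 1.56 to 4.29 CPM in wild-type kidneys (-0.84, SE 0.31, edgeR adjusted p = 0.999). Hippo and notch genes linked to repair had 10 of 16 values above 0 in kidney and 6 of 16 in liver, and cell division genes 4 of 8 in kidney and 3 of 7 in liver. Of the acute-phase genes, 3 of 12 were above 0 in kidney and 3 of 16 in liver. The simple epithelial keratins, 3 members among them, had 1 of 6 above 0 in kidney and 2 of 5 in liver, and the lipocalins 4 of 7 in kidney and 1 of 7 in liver.

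Markers of the proximal tubule, where Havcr1, Sox9 and Vcam1 appear on injury, gave no call. The 10 markers summed to 9554 to 11235 CPM in knockout kidneys and 10741 to 12018 CPM in wild-type kidneys, 5 of the 10 above 0 and 5 below (median log2 fold change 0.00). The phosphate transporter Slc34a1 was at 4722 to 5053 CPM in knockout kidneys and 5517 to 6357 CPM in wild-type kidneys, without overlap, and had a log2 change of -0.25 (SE 0.08, edgeR adjusted p = 0.999). The 7 macrophage markers, genes of the cells that carry Csf1r, summed to 103 to 125 CPM in knockout kidneys and 108 to 137 CPM in wild-type kidneys. Csf1r is itself one of the 7 and makes up most of the sum, so the sum is not separate from the Csf1r values above.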

How the data were processed

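Poly(A) RNA of whole kidney and liver was measured in 19 libraries, 5 and 5 kidneys and 5 and 4 livers of knockout and wild-type mice, grouped by the labels' genotype and tissue. The deposited values are raw gene counts without normalization, and per the submitters' processing notes the authors used Trim Galore, STAR, featureCounts and DESeq2 with GRCm38, no versions or strand setting being given in the sources used here. Every gene in it has at least 10 counts in total. Of its identifiers 26417 were matched to symbols in GENCODE mouse release 21 and 89 were not.

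Each tissue was fitted with edgeR 4.0.16 in R 4.3.3 (robust quasi-likelihood, TMM, filterByExpr at a minimum count of 10), with two-sided p-values and Benjamini-Hochberg adjustment over every gene tested, at 0.05. The tissue difference and the interaction came from 1 fit of all libraries. Standard errors come from the F statistic, and p-values measure the spread between libraries, which the labels do not say in words came from separate animals. Correlations use log2 CPM with a prior count of 2, and permutation tests over 10 libraries used 100000 resamples. Intervals of fold changes come from these standard errors, while the Havcr1 count ratio and the limits of detection (3 counts) cover counting error only, at the depths the report gives. The scripts were tested on simulated data.

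Members and lists were chosen with earlier results of these data known. All members were named, with H2afy, Alb and Umod as checks, and genes named from the 23 other lists were taken from the 2 with the smallest p in either tissue, without naming all of these. Cyp11a1, Mpo, Ly6g, Itga4, Csf1r and Cd44 were named outside this rule. One gene close to a member is not reported here. Alternatives were DESeq2 1.42.0, limma 3.58.1 voom (sample weights), scaling by DESeq2 size factors or by library totals, a 1 CPM filter or none, all groups in 1 fit, a block for the mouse number, and fits without single mice or without 16 and 24. The kidney-liver relation within a mouse number and the leave-one-out ratios were added after seeing the data.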

Additional observations from a re-analysis of the deposited data

Results flagged for a closer look

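In 36 groups of 4 or 5 libraries (each member in each group, leaving out Havcr1 and Krt20 in liver), a library was singled out when its gap to the nearest other library was a large share of the group's whole range; chance gives about 1 such library in 20 groups. Krt8 reached 140 CPM in the kidney of knockout 18, where the other knockout kidneys lay between 87.0 and 99.4 CPM. Krt18 reached 35.2 CPM in the kidney of wild-type 23, with the other wild-type kidneys between 21.9 and 25.7 CPM. Krt20 reached 0.747 CPM in the kidney of wild-type 24, with the others between 0.387 and 0.474 CPM. Il34 was at 1.10 CPM in the liver of knockout 14, with the other knockout livers between 2.11 and 2.49 CPM.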

How the results depend on the processing

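The call of 0 members in each knockout comparison held under all alternatives, with the lowest adjusted p of any member at 0.885 in kidney, 0.589 in liver and 0.897 for the difference between tissues. Over the edgeR, DESeq2 and limma voom fits, the lowest unadjusted p was 0.0989 in kidney (Krt8) and 0.0308 in liver (Vcam1). For the difference between tissues it was 0.0314 (Sox9) over the same fits. Between wild-type tissues the number of members called was 9 under each alternative, except 8 with the 1 CPM filter, and with library totals the 9 held Vcam1 in place of Lcn2. The count over all genes depended on the tool and the libraries. In kidney, 1 gene in edgeR, it was 15 with DESeq2, 7 with limma voom, 4 with no filter, 3 with all groups in 1 fit, 12 without mice 16 and 24, and 1 to 10 when single mice were left out (10 without knockout 16, 7 without wild-type 24). In liver, 0 genes in edgeR, it was 42, 5, 3, 21 and 11 under the same alternatives and 0 to 7 when single mice were left out (7 without knockout 16, 5 without wild-type 24). For the difference between tissues, 0 genes in edgeR, it was 11 with DESeq2, 1 with limma voom, 4 without mice 16 and 24, and 0 to 3 when single mice were left out (3 without knockout 16).

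Log2 fold changes near 0 changed sign. In kidney, Krt20 was 0.091 and Vcam1 0.0098 with limma voom, and Il34 was -0.0019 with no filter and -0.080 without mice 16 and 24. In liver, Lcn2 was 0.041 with limma voom, and without mice 16 and 24 Lcn2 was 0.16 and Krt8 -0.030. For the difference between tissues, Lcn2 was -0.043 without mice 16 and 24, and Krt18 was 0.037 with library totals, 0.00011 with no filter, 0.011 with the 1 CPM filter and 0.014 without mice 16 and 24. Between wild-type tissues Vcam1 was 0.12 with limma voom, 0.87 with library totals, 0.028 with no filter and 0.17 without mice 16 and 24. With single mice left out the ranges were, in kidney, Lcn2 -0.15 to 0.17, Krt8 -0.17 to 0.041, Krt18 -0.20 to 0.023, Krt20 -0.52 to 0.18, Vcam1 -0.25 to 0.017 and Il34 -0.065 to 0.12. In liver they were Lcn2 -0.31 to 0.22, Krt8 -0.065 to 0.097 and Spp1 -0.099 to 0.076. For the difference they were Lcn2 -0.32 to 0.41, Krt18 -0.076 to 0.13, Spp1 -0.17 to 0.047 and Clu -0.0077 to 0.10, and between wild-type tissues Vcam1 -0.18 to 0.17. The causes were not tested.

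The mouse number as a block called 0 genes and 0 members for the difference between tissues and 13194 genes and 9 members between wild-type tissues, with Krt18 at 0.12 for the difference, and changed no call of a member. Same-numbered kidneys and livers correlated in their deviations at 0.08 to 0.42 over 9 numbers, and 4 of 9 libraries correlated best with their own number, so the pairing is only a hint. Centred on each genotype, 1 of the 45 kidney correlations passed. Krt8 over the 9 numbers kept an r of 0.81 to 0.94 with single mice left out and 0.85 without mice 16 and 24. Havcr1, Krt20 and Sox9 rest on the fewest kidney counts, and liver gives no value for Havcr1 and Krt20; with 4 or 5 libraries a group, small changes stay within the intervals given.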
